A study of Mus musculus with 9 samples.

Results

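The MHC class II genes examined here are the 8 genes H2-Aa, H2-Ab1, H2-Eb1, H2-DMa, H2-DMb1, H2-Oa, Cd74 and Ciita, chosen by name and found through the RefSeq accession of each array probe. They were 8 of the 13122 named genes tested, measured by 9 of 55681 probes, with 2 probes for H2-Ab1 and 1 for each of the others. RNA came from LSK cells, the mouse bone marrow fraction that lacks lineage markers, carries Sca-1 and Kit, and holds haematopoietic stem cells and early progenitors. One group of cells carried DNMT3A R882H, a recurrent leukaemia substitution in an enzyme that methylates DNA, and it was set against cells carrying wild-type DNMT3A and cells carrying empty vector. All 3 groups shared the C57BL/6 background, a GFP-labelled vector, transplantation and a sort for LSK cells, and each had 3 arrays. The labels give neither an age nor a time after transplantation, and nothing in them says that replicates came from separate animals, so p-values measure the variation among these samples alone, and that variation may be technical. Both DNMT3A forms were brought in by transduction beside the cells' own gene, and the promoter that drove them is not stated in the labels.

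MHC class II molecules show peptides from the endosomal route to CD4+ T cells. The surface molecule is a pair of an alpha and a beta chain, such as the A alpha and A beta chains from H2-Aa and H2-Ab1. The invariant chain, from Cd74, guides new pairs to endosomes, where the H2-DM pair swaps its last fragment for an antigen peptide and the H2-O pair holds H2-DM back. Ciita encodes the coactivator that turns the whole gene set on, by joining the factors RFX and NF-Y that sit on the X and Y boxes of class II promoters. B cells, dendritic cells and macrophages carry the most class II, and C57BL/6 mice carry a deletion that silences the E alpha gene, the partner of H2-Eb1.

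All 9 probes of the 8 genes were well above background on all 9 arrays, so each gene had a measured level in every sample. Levels are log2 of the processed intensity after subtracting the 75th percentile of the array, and levels of different genes are not comparable because each rests on its own probe. No spot was saturated, 53.8% to 65.0% of spots per array were well above background, and precision is limited by how few arrays there are. Of 9 LSK and stem cell marker genes, 7 to 9 were well above background on each array. Their levels were not alike between groups. In R882H, 9 were higher and 0 lower than in empty vector (median log2 difference 0.26), and 8 higher and 1 lower than in wild-type DNMT3A (0.69). Between wild-type DNMT3A and empty vector 5 were higher and 4 lower (0.15), and none had an adjusted limma p under 0.05. The labels go against each other in 1 respect: of the 9 columns of the authors' deposited value table, 2 held the array of the sample they are named for and 7 held another sample's, 4 of them from another group. Taken in column order, the arrays held were sorted by group, with empty vector 1 to 3, then R882H 1 to 3, then wild-type DNMT3A 1 to 3. The column names were not in that order, and how they came to differ was not tested. Groups here follow the labels of the scanner output, and values by the names of the deposited table's columns are given beside a number of the results. Slide and group were also entangled. Slide 1 held the 3 empty vector arrays and wild-type replicate 1, slide 2 held wild-type replicates 2 and 3 with R882H replicates 1 and 2, and slide 3 held R882H replicate 3. R882H and empty vector therefore shared no slide, and a fit with slide as a block joins them only through wild-type replicate 1.

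The promoters are shown because class II genes are known to be switched on together through shared promoter boxes, and the 8 genes are read below by whether they moved together. RefSeq promoters on GRCm38.p6, running from 250 bases before to 50 bases after the start of the gene, were held in the table used for 5 of the 8 genes: H2-Aa, H2-Eb1, H2-DMa with 2 promoters, H2-DMb1 and H2-Oa. The Y box core GATTGG lay in a promoter of 5 of 5 genes, against 16.11% of 32851 promoters, counting both strands. These 5 genes had 6 promoters, and H2-DMa carried the core in 1 of its 2, 199 bases before the start. In the other genes it lay 35 to 62 bases before the start. Part of the X box, ACNGATG, lay in 4 of 5 genes, H2-Aa, H2-Eb1, H2-DMb1 and H2-Oa, against 9.85% of promoters. In H2-Aa that match was on the other strand and farther from the start, outside the stretch printed here. The palindrome TGACGTCA, a cyclic AMP response element, lay in H2-Aa alone of the 5, against 1.79% of promoters. Below are the 150 bases before the start of 3 of these genes, 5′ to 3′ on the strand of the gene, with these motifs in capitals. They span chr17:34287824-34287973 on the minus strand for H2-Aa, chr17:34305717-34305866 on the plus strand for H2-Eb1 and chr17:34153041-34153190 on the plus strand for H2-DMb1.
H2-Aa: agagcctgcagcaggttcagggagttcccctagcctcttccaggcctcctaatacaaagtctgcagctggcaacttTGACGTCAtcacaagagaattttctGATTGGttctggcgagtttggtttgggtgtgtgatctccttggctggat
H2-Eb1: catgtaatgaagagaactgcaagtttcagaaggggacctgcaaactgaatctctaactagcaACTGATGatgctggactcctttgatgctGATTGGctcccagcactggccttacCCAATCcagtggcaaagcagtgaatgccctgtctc
H2-DMb1: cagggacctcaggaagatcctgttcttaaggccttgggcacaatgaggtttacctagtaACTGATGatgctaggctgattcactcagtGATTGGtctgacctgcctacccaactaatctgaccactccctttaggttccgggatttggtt
The last capital run of H2-Eb1, CCAATC, is the Y box core on the other strand. The X part and the Y core were 21 bases apart in H2-Eb1, 22 in H2-DMb1 and 86 in H2-Oa, and in H2-Aa 17 bases separated the palindrome from the Y core, so no motifs overlapped. A match says only that these letters are in the window. Binding was not measured, and whether these motifs bear on the differences between groups was not tested.

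No class II gene passed the test in any of the 3 comparisons, at a Benjamini-Hochberg adjusted limma p under 0.05 over all 13122 genes. The background was the same, 0% of genes in each comparison, while an unadjusted limma p under 0.05 was reached by 9.05% of genes between R882H and empty vector, 8.04% between R882H and wild-type DNMT3A and 5.95% between wild-type DNMT3A and empty vector. The 3 genes of the antigen-binding chains were highest on average in R882H cells, and H2-Ab1 was 1.97-fold higher in R882H than in wild-type DNMT3A cells before any correction for the number of genes. The H2-DM genes were instead highest on average in empty vector cells. Against wild-type DNMT3A, the median difference of the 8 genes was 0.37 on the log2 scale, with 6 higher and 2 lower in R882H, beside a median of -0.01 over all genes. Against empty vector the median was 0.15, with 5 higher and 3 lower, beside -0.02 over all genes. Between wild-type DNMT3A and empty vector it was -0.22, with 1 higher and 7 lower, beside 0.01 over all genes. By group mean, from high to low, H2-Aa, H2-Ab1, Cd74 and Ciita ran in the order R882H, empty vector, wild-type DNMT3A, H2-Eb1 in the order R882H, wild-type DNMT3A, empty vector, H2-DMa and H2-DMb1 in the order empty vector, wild-type DNMT3A, R882H, and H2-Oa in the order empty vector, R882H, wild-type DNMT3A. Groups next to each other in these orders overlapped for every gene but Ciita. The 3 comparisons share arrays, so their values are not independent.

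At an unadjusted limma p under 0.05, 3 of the 8 genes were higher in R882H than in wild-type DNMT3A cells, H2-Ab1, H2-Eb1 and Ciita, where 3.65% of all genes were higher. Against empty vector 1 gene was, H2-Eb1, where 5.51% of all genes were higher. No class II gene reached that p between wild-type DNMT3A and empty vector, where 5.95% of all genes did. With replicate number as a block, 1071 of all 13122 genes did. H2-DMb1 was then the 1 class II gene among them, at an unadjusted limma p of 0.0419 and an adjusted p of 0.590. Counting genes whose groups did not overlap gave 3 of 8 higher in R882H than in wild-type DNMT3A, H2-Ab1, Cd74 and Ciita, beside 6.75% of all genes. It gave 2 of 8 higher in R882H than in empty vector, H2-Eb1 and Ciita, beside 9.42%, and 1 of 8 lower in wild-type DNMT3A than in empty vector, Ciita, beside 4.4%. In the other directions 0 of 8 were apart here, beside 8.7% of all genes lower in R882H than in wild-type DNMT3A, 8.96% lower in R882H than in empty vector and 5.66% higher in wild-type DNMT3A than in empty vector. By the column names of the deposited table the genes that were apart changed. The share over all genes was not counted by those names, so the counts that follow have no background and are a description only. Against wild-type DNMT3A 1 of 8 was then apart and higher in R882H, H2-Aa, and H2-Ab1, Cd74 and Ciita overlapped. Against empty vector H2-Eb1 was higher and H2-DMa lower in R882H, and between wild-type DNMT3A and empty vector H2-DMa was lower in wild-type DNMT3A.

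**Figure D1:**
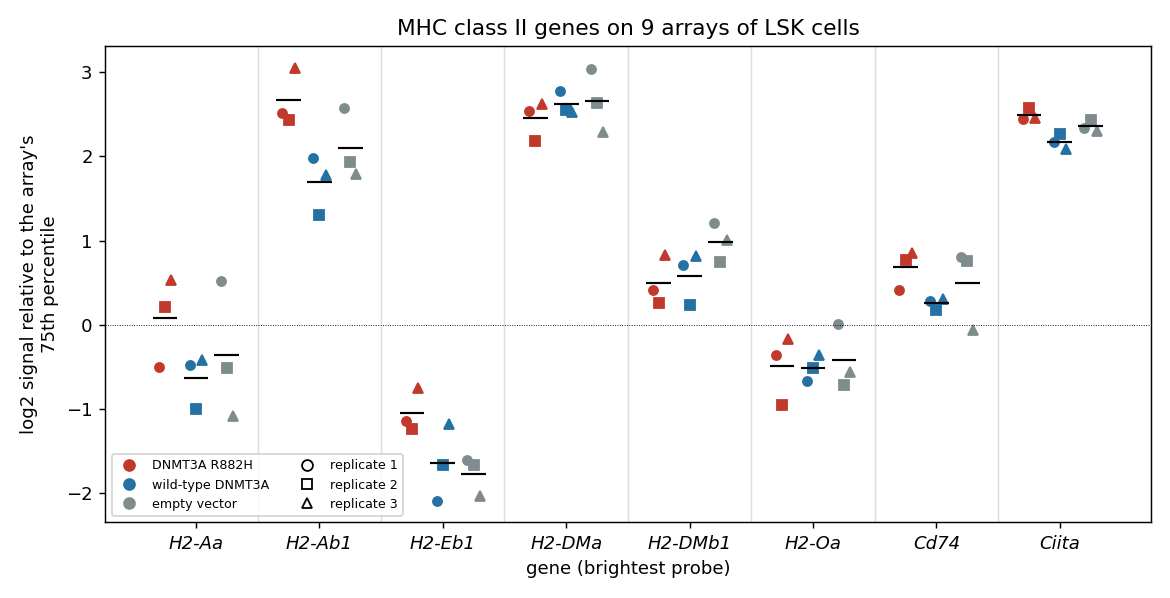
Level of each class II gene on each of the 9 arrays (y axis, log2 signal relative to the 75th percentile of that array) by gene (x axis), with R882H left of wild-type DNMT3A and empty vector, marker shapes for replicates 1 to 3 and a short line at each group mean. The R882H arrays lie above all wild-type DNMT3A arrays for H2-Ab1, Cd74 and Ciita, and levels may be compared within a gene only.

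H2-Ab1, the A beta chain, had levels of 2.52, 2.43 and 3.05 in R882H replicates 1, 2 and 3, of 1.98, 1.31 and 1.78 in wild-type DNMT3A replicates 1, 2 and 3, and of 2.58, 1.93 and 1.79 in empty vector replicates 1, 2 and 3. All R882H arrays lay above all wild-type arrays, while empty vector replicate 1 stood among the R882H arrays. The group means were 2.67 ± 0.34 in R882H, 1.69 ± 0.34 in wild-type DNMT3A and 2.10 ± 0.42 in empty vector (SD, n = 3 each). R882H exceeded wild-type DNMT3A by 0.98 ± 0.28 on the log2 scale (SE, 95% interval 0.35 to 1.61), with a limma adjusted p of 0.547. Within slide 2, where both groups had 2 arrays, the difference was 0.93, and by the column names of the deposited table it was 0.55. R882H exceeded empty vector by 0.57 ± 0.28 (adjusted p = 0.563), and wild-type DNMT3A differed from empty vector by -0.41 ± 0.28 (adjusted p = 0.874). In the order R882H, empty vector, wild-type DNMT3A, neighbouring groups overlapped and only the ends were apart.

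The second H2-Ab1 probe gave the same picture. Its levels were 1.65, 1.65 and 2.10 in R882H, 1.17, 0.52 and 0.93 in wild-type DNMT3A and 1.77, 0.96 and 1.004 in empty vector. Again no wild-type array reached an R882H array, and empty vector replicate 1 was the odd one of its group. The difference between R882H and wild-type DNMT3A was 0.93 ± 0.27 (SE), with an adjusted p of 0.556 in a limma fit over 17035 probes, and that between R882H and empty vector was 0.56 ± 0.27 with an adjusted p of 0.595. The probes measured the same RNA samples and are not replicates of each other.

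H2-Aa, the A alpha chain that pairs with H2-Ab1, had levels of -0.50, 0.22 and 0.53 in R882H, -0.48, -1.004 and -0.41 in wild-type DNMT3A and 0.51, -0.51 and -1.09 in empty vector. The groups overlapped, since R882H replicate 1 fell within the range of both other groups and empty vector replicate 1 lay close to R882H replicate 3. R882H differed by 0.71 ± 0.42 from wild-type DNMT3A (SE, limma adjusted p = 0.670) and by 0.44 ± 0.42 from empty vector (adjusted p = 0.716). Of the 8 genes, H2-Aa varied most within groups, with a pooled SD of 0.589, more than 87.7% of all genes tested. The 95% intervals of its differences ran from -0.23 to 1.65 against wild-type DNMT3A and from -0.50 to 1.39 against empty vector. The difference from empty vector was 0.08 without empty vector replicate 3 and 0.88 without empty vector replicate 1.

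H2-Eb1, the E beta chain, had levels of -1.14, -1.24 and -0.75 in R882H, -2.09, -1.67 and -1.18 in wild-type DNMT3A and -1.61, -1.66 and -2.03 in empty vector. Every R882H array lay above every empty vector array, and wild-type replicate 3 fell among the R882H arrays. The means were -1.04 ± 0.26 in R882H, -1.64 ± 0.46 in wild-type DNMT3A and -1.77 ± 0.23 in empty vector (SD, n = 3 each). R882H exceeded empty vector by 0.72 ± 0.25 (SE), or 1.65-fold, with a limma adjusted p of 0.523, and wild-type DNMT3A by 0.60 ± 0.25 with an adjusted p of 0.610. With slide as a block the difference from empty vector was -0.09 ± 0.38, and within slide 2 that from wild-type DNMT3A was 0.23 ± 0.25. The processed intensity of this probe was 49.2 to 116, beside a median local background of 24 to 29. Its slide 1 arrays lay between -2.09 and -1.61 and its slide 2 arrays between -1.67 and -1.14, so slide and group cannot be told apart between R882H and empty vector.

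H2-DMa, the alpha chain of the peptide exchanger H2-DM, had levels of 2.54, 2.19 and 2.62 in R882H, 2.77, 2.55 and 2.52 in wild-type DNMT3A and 3.04, 2.64 and 2.29 in empty vector. The groups overlapped throughout, and the highest level was that of empty vector replicate 1. R882H differed from wild-type DNMT3A by -0.17 ± 0.22 and from empty vector by -0.20 ± 0.22 (SE, limma adjusted p = 0.844 and 0.743). The intervals of these differences ran between -0.66 and 0.33 and between -0.70 and 0.29. The difference from empty vector was -0.39 without empty vector replicate 3 and -0.015 without empty vector replicate 1. Wild-type DNMT3A differed from empty vector by -0.04 ± 0.22 (adjusted p = 0.977), and by -0.36 by the column names of the deposited table.

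H2-DMb1, the beta chain of H2-DM, had levels of 0.42, 0.25 and 0.82 in R882H, 0.71, 0.23 and 0.81 in wild-type DNMT3A and 1.203, 0.74 and 1.01 in empty vector. R882H replicate 3 and wild-type replicate 3 reached above the lowest empty vector array, so no groups were apart. The means were 0.50 ± 0.29, 0.58 ± 0.31 and 0.98 ± 0.23 in R882H, wild-type DNMT3A and empty vector (SD, n = 3 each). The difference between R882H and empty vector was -0.49 ± 0.23 (SE, limma adjusted p = 0.558), and that between wild-type DNMT3A and empty vector was -0.40 ± 0.23 (adjusted p = 0.874). With replicate number as a block, wild-type DNMT3A differed from empty vector by -0.40 ± 0.16 (SE, limma adjusted p = 0.590). Over 19 alternative settings the difference between R882H and empty vector was negative, from -0.65 with the array median to -0.26 by the column names of the deposited table.

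H2-Oa, the alpha chain of H2-O, had levels of -0.36, -0.95 and -0.17 in R882H, -0.67, -0.51 and -0.36 in wild-type DNMT3A and 0.007, -0.72 and -0.55 in empty vector. The 3 groups lay over one another. The differences were 0.02 ± 0.26 between R882H and wild-type DNMT3A and -0.07 ± 0.26 between R882H and empty vector (SE, limma adjusted p = 0.987 and 0.930). Their 95% intervals, -0.56 to 0.60 and -0.65 to 0.51, lay on both sides of 0.

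Cd74, the invariant chain that escorts new class II pairs, had levels of 0.41, 0.78 and 0.86 in R882H, 0.28, 0.18 and 0.30 in wild-type DNMT3A and 0.81, 0.76 and -0.06 in empty vector. All R882H arrays exceeded all wild-type arrays, whose spread was small, and empty vector replicates 1 and 2 lay among the R882H arrays with replicate 3 below every other array. The means were 0.68 ± 0.24 in R882H, 0.25 ± 0.07 in wild-type DNMT3A and 0.50 ± 0.49 in empty vector (SD, n = 3 each). The difference between R882H and wild-type DNMT3A was 0.43 ± 0.25 (SE, limma adjusted p = 0.659). Against empty vector R882H differed by 0.18 ± 0.25 (adjusted p = 0.8005), and by -0.10 without empty vector replicate 3.

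Ciita, the coactivator of class II genes, had levels of 2.44, 2.57 and 2.45 in R882H, 2.17, 2.26 and 2.09 in wild-type DNMT3A and 2.34, 2.43 and 2.30 in empty vector. The R882H arrays stood above all empty vector arrays, with the closest pair at 2.44 and 2.43, and the wild-type arrays stood below all empty vector arrays. The means were 2.49 ± 0.07 in R882H, 2.17 ± 0.09 in wild-type DNMT3A and 2.36 ± 0.07 in empty vector (SD, n = 3 each). R882H exceeded wild-type DNMT3A by 0.32 ± 0.13 (SE), or 1.24-fold, with a limma adjusted p of 0.610. R882H differed from empty vector by 0.13 ± 0.13 (adjusted p = 0.733), and wild-type DNMT3A from empty vector by -0.19 ± 0.13 (adjusted p = 0.874). The pooled within-group SD of Ciita was 0.075, smaller than that of all but 0.922% of genes, and the fit's shared spread gave it a larger error than its own arrays did. By the column names of the deposited table the difference between R882H and wild-type DNMT3A was 0.04, and within slide 2 it was 0.33.

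**Figure D2:**
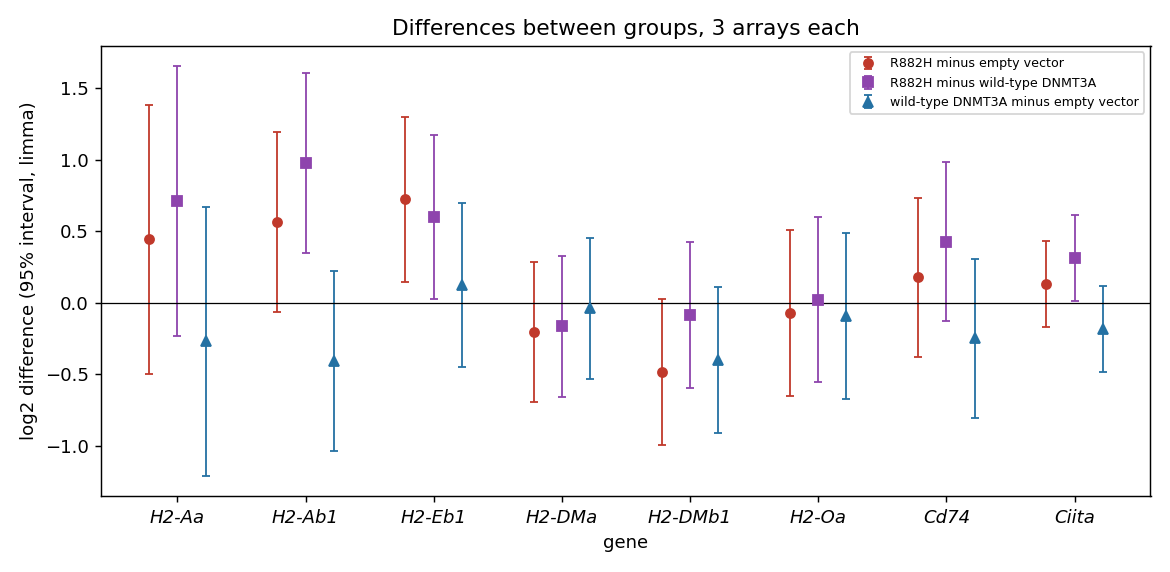
Log2 difference of each class II gene (y axis, points with 95% limma intervals) for R882H against empty vector, R882H against wild-type DNMT3A and wild-type DNMT3A against empty vector (marker shapes), by gene (x axis). The intervals of H2-Ab1, H2-Eb1 and Ciita for R882H against wild-type DNMT3A, and of H2-Eb1 for R882H against empty vector, lie above 0 before correction for the number of genes, and no gene passed after it.

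The antigen-binding chain genes were set against the H2-DM and H2-O genes, called loading chain genes here although H2-O holds H2-DM back. Each gene was centred on its mean over the 9 arrays, and the mean of H2-DMa, H2-DMb1 and H2-Oa was taken from the mean of H2-Aa, H2-Ab1 and H2-Eb1 on each array. This difference was 0.23, 0.78 and 0.66 in R882H replicates 1, 2 and 3, -0.33, -0.40 and -0.12 in wild-type DNMT3A and -0.11, -0.16 and -0.55 in empty vector. All R882H arrays were above 0 and all other arrays below it. The means were 0.557 ± 0.287 in R882H, -0.283 ± 0.146 in wild-type DNMT3A and -0.274 ± 0.238 in empty vector (SD, n = 3 each). The loading mean alone overlapped between all groups, at -0.43 to 0.16 in R882H, -0.17 to 0.06 in wild-type DNMT3A and -0.04 to 0.49 in empty vector. The antigen-binding mean alone was 0.17 to 0.82 in R882H, -0.58 to -0.06 in wild-type DNMT3A and -0.56 to 0.37 in empty vector. The split into these roles was chosen after the values were seen, so it has no test and is given as a description.

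Within this split, chosen after the values were seen, H2-Ab1 and H2-Eb1 had all R882H arrays above all others relative to each of the 3 loading chain genes. H2-Aa did so only relative to H2-DMb1, and only against wild-type DNMT3A. H2-Ab1 minus H2-DMa, for example, was 0.40, 0.66 and 0.85 in R882H, -0.37, -0.82 and -0.32 in wild-type DNMT3A and -0.03, -0.29 and -0.08 in empty vector, after centring. For the difference of the chain means, not this pair, R882H minus wild-type DNMT3A stayed between 0.66 and 1.002 over 20 alternative settings. R882H minus empty vector stayed between 0.62 and 0.99 over 19. By the column names of the deposited table the groups overlapped in this difference of chain means. It was then 0.78, 0.66 and -0.12 in R882H, -0.55, 0.23 and -0.40 in wild-type DNMT3A and -0.11, -0.16 and -0.33 in empty vector.

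**Figure D3:**
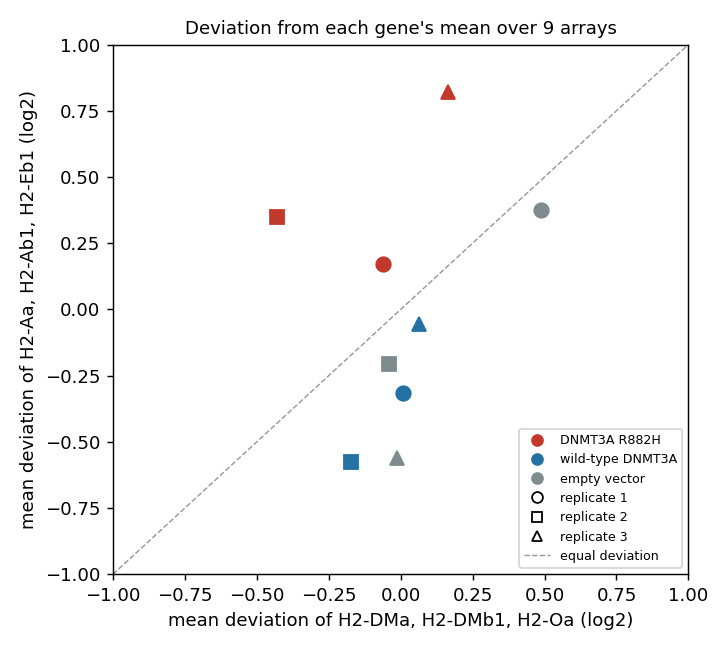
Mean deviation of H2-Aa, H2-Ab1 and H2-Eb1 (y axis, log2) against mean deviation of H2-DMa, H2-DMb1 and H2-Oa (x axis, log2) on each of the 9 arrays, each gene centred on its own mean, with colours for groups and a dashed line where both are equal. The 3 R882H arrays lie above the line and the other 6 arrays below it, while empty vector replicate 1 is high on both axes.

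The arrays also differed in class II level as a whole. R882H replicate 3 was the highest array for H2-Aa, H2-Ab1, H2-Eb1 and Cd74, and empty vector replicate 1 was the highest for H2-DMa, H2-DMb1 and H2-Oa. The mean of the 8 genes, each in units of its SD over the arrays, was 0.13, -0.02 and 1.03 in R882H, -0.44, -0.78 and -0.22 in wild-type DNMT3A and 0.996, -0.02 and -0.69 in empty vector. Without empty vector replicate 3 the median difference of the 8 genes between R882H and empty vector was -0.00996, and without empty vector replicate 1 it was 0.24. Without number 3 in any group, 3 of the 8 genes were higher in R882H than in empty vector, H2-Ab1, H2-Eb1 and Ciita, and the median of the 8 was -0.17.

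**Figure D4:**
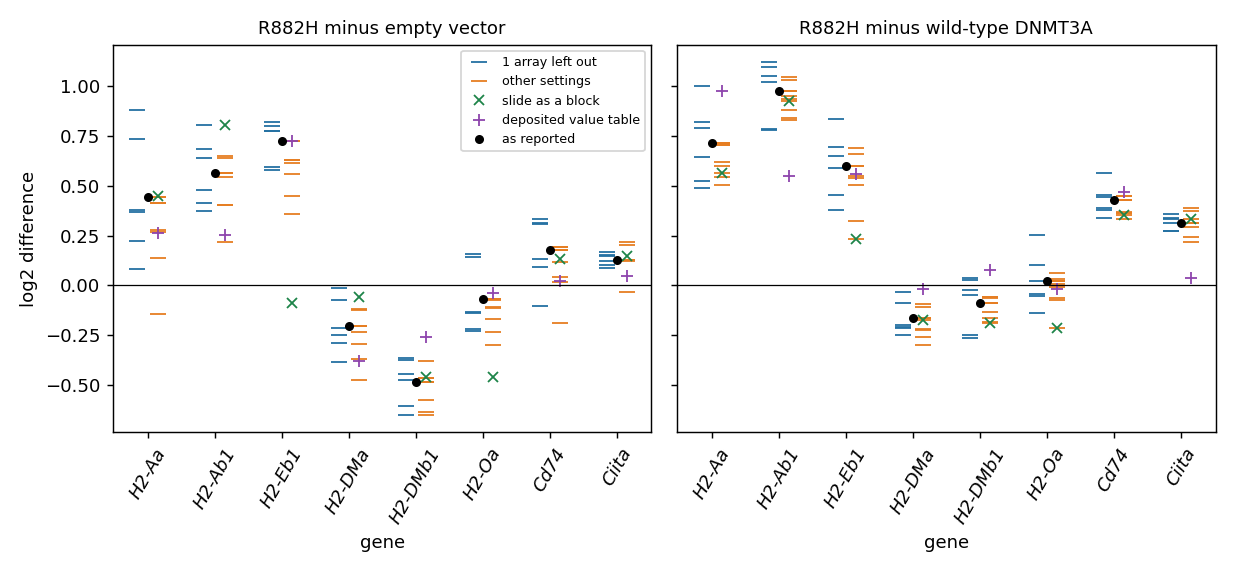
Log2 difference of each class II gene (y axis) under every setting tried (marks), for R882H against empty vector (left panel) and R882H against wild-type DNMT3A (right panel), by gene (x axis), with the value as reported as a black point. H2-Aa, H2-Ab1, H2-Eb1, Cd74 and Ciita stay above 0 in all 20 settings against wild-type DNMT3A, and against empty vector H2-Ab1 alone of the 8 stays above 0 in all 19.

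Of the 3 other class II genes with a probe, H2-DMb2, a second H2-DM beta chain gene, had levels of -2.02, -1.69 and -1.17 in R882H, -1.50, -0.37 and -1.48 in wild-type DNMT3A and 0.13, 0.33 and -0.93 in empty vector. All R882H arrays lay below all empty vector arrays, and the difference was -1.47 ± 0.42 (SE, limma adjusted p = 0.485). H2-DMb1 and H2-DMb2 are near-identical copies, so how far each probe reads only its own gene is uncertain. H2-Eb2, a relative of H2-Eb1, had levels of -1.08, -1.03 and -1.63 in R882H, -2.37, -1.65 and -1.42 in wild-type DNMT3A and -1.99, -1.70 and -2.26 in empty vector. Its R882H arrays lay above all empty vector arrays, with a difference of 0.74 ± 0.28 from empty vector and 0.57 ± 0.28 from wild-type DNMT3A (adjusted p = 0.523 and 0.628). H2-Ob, the partner of H2-Oa in H2-O, spread widely, with 0.76, 0.30 and 0.54 in R882H, 1.46, 1.22 and 0.29 in wild-type DNMT3A and 0.74, 0.97 and -0.83 in empty vector.

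Among factors that bind class II promoters, Rfxank and Nfyc had the smallest p. Rfxank encodes the ankyrin repeat subunit of RFX and had levels of -1.60, -1.96 and -1.65 in R882H, -2.44, -2.53 and -1.77 in wild-type DNMT3A and -2.35, -2.49 and -2.85 in empty vector. Its R882H arrays lay above all empty vector arrays, by a mean of 0.83 ± 0.24 (SE, limma adjusted p = 0.490), and R882H differed from wild-type DNMT3A by 0.51 ± 0.24 (adjusted p = 0.626). Of the 9 genes tested in this list, 5 were higher and 4 lower in R882H than in empty vector with a median of 0.01, and 6 were higher and 3 lower than in wild-type DNMT3A with a median of 0.13. None passed the test. Nfya, an NF-Y subunit, differed by 0.21 from empty vector, and Nfyc, another subunit, by -0.55 ± 0.23 from wild-type DNMT3A (adjusted p = 0.610), with every R882H array below every wild-type array. Between wild-type DNMT3A and empty vector, Nfyc differed by 0.36 and Rfxank by 0.31.

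Interferon-gamma is a known inducer of Ciita, and Irf1 is a factor of that route. Irf1 had levels of 3.61, 3.72 and 4.25 in R882H, 3.91, 3.63 and 3.23 in wild-type DNMT3A and 2.93, 3.53 and 2.86 in empty vector. Every R882H array exceeded every empty vector array, and the difference was 0.75 ± 0.27 (SE, limma adjusted p = 0.523), with wild-type DNMT3A at 0.48 ± 0.27 over empty vector (adjusted p = 0.874). Of the 9 genes of this route tested, 6 were higher and 3 lower in R882H than in empty vector with a median of 0.22, and 7 were higher and 2 lower than in wild-type DNMT3A with a median of 0.07. Ifngr2, a chain of the interferon-gamma receptor, differed by -0.38 between R882H and wild-type DNMT3A and by 0.26 between wild-type DNMT3A and empty vector. Ifng itself did not pass the filter on dim probes.

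Of the 5 tested lineage factors known to act on Ciita, Irf4, which works in B cells and plasma cells, was well above background on all 3 R882H arrays and on none of the other 6. Its levels were -3.63, -0.26 and -1.92 in R882H, a wide range, against a bound in the other groups. The probe read -4.49, -3.25 and -5.75 in empty vector, so R882H replicate 1 lay below empty vector replicate 2. By group means, R882H was at least 3.91-fold higher than empty vector and at least 3.87-fold higher than wild-type DNMT3A (limma adjusted p = 0.523 and 0.547). Here each array of the dim group enters with the probe's own signal or, if higher, the dimmest signal on that array that is well above background. Without R882H replicate 2 these bounds were 2.19-fold and 2.17-fold, and without R882H replicate 1 they were 7.03-fold and 6.97-fold. Spi1, the myeloid and B cell factor PU.1, had levels of 1.09, 0.94 and 1.61 in R882H, 1.57, 1.49 and 1.97 in wild-type DNMT3A and 2.00, 1.64 and 2.23 in empty vector. Its R882H arrays all lay below its empty vector arrays, with the closest pair at 1.61 and 1.64, and the difference was -0.74 ± 0.24 (adjusted p = 0.512). Irf8, which partners PU.1 in monocytes and dendritic cells, differed by -1.004 ± 0.32 between R882H and wild-type DNMT3A (adjusted p = 0.552) and by 0.63 ± 0.32 between wild-type DNMT3A and empty vector (adjusted p = 0.872). Spi1 differed by -0.28 between wild-type DNMT3A and empty vector. Counted over the list, 3 were higher and 2 lower in R882H than in each of the other groups. Irf4, among the higher, passed the filter on dim probes only through the R882H arrays. Its p-values and its place in these counts therefore depend in part on that group being high.

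Of 9 genes for antigen processing, the invariant chain or class II turnover, 8 were lower in R882H than in empty vector, with a median of -0.27. Marchf1 and Marchf8, at -0.03 and -0.07, were among the 8. None of the 9 passed the test, and 0 reached an unadjusted limma p under 0.05 or had these groups apart. Against wild-type DNMT3A 3 were higher and 6 lower, with a median of -0.22. Ctss, the protease that trims the invariant chain in B cells and dendritic cells, had levels of 3.09, 2.73 and 2.73 in R882H, 3.75, 3.17 and 3.59 in wild-type DNMT3A and 3.31, 3.57 and 2.88 in empty vector. Its R882H arrays lay below all wild-type arrays, with a difference of -0.65 ± 0.23 from wild-type DNMT3A and of -0.40 ± 0.23 from empty vector (SE, limma adjusted p = 0.552 and 0.584). Ctsb, a lysosomal protease, differed by -0.28 between R882H and empty vector, and Ctsl, another, by 0.33 between R882H and wild-type DNMT3A. Between wild-type DNMT3A and empty vector, Ctsl differed by -0.59 ± 0.23 (adjusted p = 0.793) and Ctss by 0.25.

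Costimulatory and inhibitory ligands, which T cells read beside class II, had 4 tested genes, and none passed. Cd86, a CD28 ligand, had levels of -2.77, -2.74 and -2.06 in R882H, -3.21, -3.09 and -5.91 in wild-type DNMT3A and -2.84, -2.13 and -1.38 in empty vector, with wild-type replicate 3 not well above background. It differed by 1.55 ± 0.71 between R882H and wild-type DNMT3A and by -1.95 ± 0.71 between wild-type DNMT3A and empty vector (SE, limma adjusted p = 0.624 and 0.778). Wild-type replicate 3 set much of both values, which were 0.63 and -1.03 without it. Cd80, the other CD28 ligand, differed by 0.29 and Cd274, the inhibitory ligand PD-L1, by 0.54 between R882H and empty vector. Icosl, the ICOS ligand, differed by 0.50 between R882H and wild-type DNMT3A, and Cd80 by 0.36 between wild-type DNMT3A and empty vector. Of the 4 genes, 3 were higher and 1 lower in R882H than in empty vector, and 2 were higher and 2 lower than in wild-type DNMT3A.

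**Figure D5:**
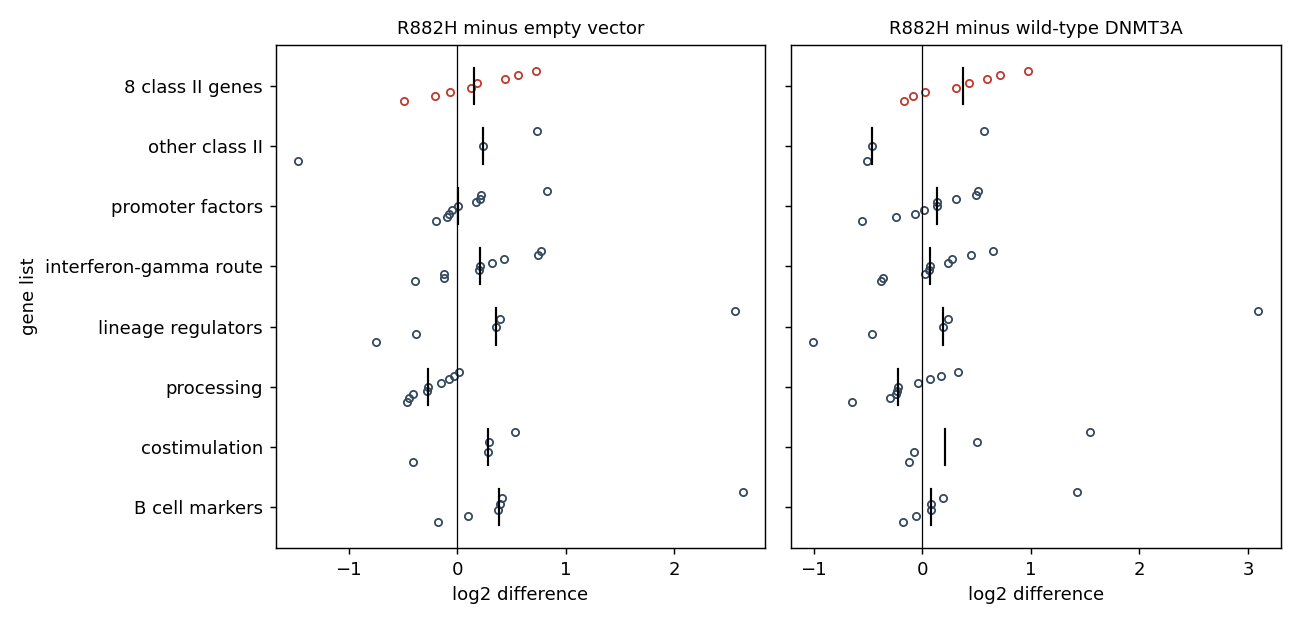
Log2 difference of each tested gene (points) in the 8 class II genes and in lists of the class II pathway and B cell markers (down the y axis), for R882H against empty vector (left panel) and R882H against wild-type DNMT3A (right panel), with a short line at each list's median and Irf4 and Cd79a drawn at their fitted differences. The processing list lies left of 0 for 8 of its 9 genes against empty vector, and the class II genes lie right of 0 for 6 of 8 against wild-type DNMT3A.

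Markers of cells that carry much class II were measured on the same arrays. In bulk samples, fewer cells of a type and less RNA per cell cannot be told apart. Of 9 B cell markers, 6 to 7 were well above background on R882H arrays, 5 to 6 on wild-type DNMT3A arrays and 5 on each empty vector array. The log2 of their summed signal, relative to the 75th percentile, ranged over 4.35 to 4.67 in R882H, 4.42 to 4.57 in wild-type DNMT3A and 4.20 to 4.33 in empty vector. Cd79a, a chain of the B cell receptor, had levels of -2.10, -0.88 and -0.42 in R882H, -3.52, -2.13 and -2.05 in wild-type DNMT3A and -3.43, -3.90 and -3.98 in empty vector, and was at least 5.74-fold higher in R882H than in empty vector (limma adjusted p = 0.310). Ms4a1, the mature B cell marker CD20, was well above background on none of the 9 arrays. Of the 6 B cell markers tested, 5 were higher and 1 lower in R882H than in empty vector, and 4 were higher and 2 lower than in wild-type DNMT3A. Cd79b was among the lower in both comparisons. It differed by -0.17 ± 0.30 from empty vector and by -0.17 ± 0.30 from wild-type DNMT3A (SE, limma adjusted p = 0.846 and 0.886). Cd79a, among the higher in both comparisons, passed the filter on dim probes only through the R882H arrays. Its p-value and its place in these counts depend in part on that group being high. Cd22 made up 66.1% to 73.1% of the summed B cell signal, and without it the log2 sums were 2.79 to 3.02 in R882H, 2.53 to 2.93 in wild-type DNMT3A and 2.45 to 2.48 in empty vector. The part of B cell RNA in the class II levels was not tested.

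Dendritic cell markers had 2 to 5 of 9 genes well above background per array and summed signals of 4.98 to 5.02 in R882H, 5.09 to 5.18 in wild-type DNMT3A and 5.01 to 5.13 in empty vector. The sum was mostly 1 Siglech probe (68.8% to 85.3%), while a second Siglech probe was well above background on 0 of 9 arrays. Clec10a, a lectin of dendritic cells and macrophages, differed by -0.71 ± 0.28 between R882H and empty vector (SE, limma adjusted p = 0.523), and Itgax, which encodes CD11c, was well above background on 0 of 3 R882H, 1 of 3 wild-type DNMT3A and 1 of 3 empty vector arrays. Macrophage markers had 4 to 7 of 10 genes well above background per array, with summed signals of 4.32 to 4.45 in R882H, 4.15 to 4.39 in wild-type DNMT3A and 4.27 to 4.44 in empty vector, of which 1 Csf1r probe made up 91.8% to 94.0%. Neutrophil and monocyte markers had a summed signal of 4.51 on empty vector replicate 3, beside -0.58 and 0.34 on the other empty vector arrays. The sums were -1.003 to 0.45 in R882H and -0.65 to 2.27 in wild-type DNMT3A. Of 5 markers, 4 were well above background on wild-type replicate 3 and on R882H replicate 3, and 3 on empty vector replicate 3. On this last array S100a9 was at 3.66 and S100a8 at 3.24, while Ccr2 was at -0.61, Mmp8 at -4.10 and Ltf at -5.97. The high sum there thus rested on S100a8 and S100a9. Empty vector replicate 3 also had the lowest H2-Aa and Cd74 levels of all 9 arrays, and the part of neutrophils or monocytes in those values was not tested. T cell markers had 4 to 5 of 7 genes well above background per array. Their summed signals were 2.68 to 2.84 in R882H, 2.66 to 2.70 in wild-type DNMT3A and 2.43 to 2.75 in empty vector. A single Cd4 probe made up 50.15% to 64.19% of that sum.

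The genes whose profile over the 9 arrays was most like the mean of the 8 class II genes were Foxd4, Lpin2, H2-Q6, Nab2, Med20 and Lgals9. Their Pearson correlations with that mean were 0.963, 0.958, 0.947, 0.940, 0.929 and 0.921, the highest of 13110 genes over 9 arrays that share slides and groups. Foxd4 is a forkhead factor, Lpin2 a phosphatidate phosphatase, H2-Q6 an MHC class I gene, Nab2 a corepressor of Egr factors, Med20 a Mediator subunit and Lgals9 the lectin galectin 9. H2-Q6 had levels of 3.30, 3.23 and 3.77 in R882H, 3.19, 2.67 and 3.04 in wild-type DNMT3A and 3.61, 3.24 and 2.98 in empty vector, so R882H replicate 3 and empty vector replicate 1 were its highest arrays too. Without those arrays, which lie farthest from the median, the correlations of the 6 genes were 0.776 to 0.902.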

How the data were processed

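RNA was measured in 9 samples of sorted mouse LSK cells, 3 per group, on Agilent mouse arrays of 1 colour, Cy3, from 3.67 ng of total RNA per sample, per the labels' protocols. Per the file headers, the array design was 028005 on build mm9 and the software was Agilent Feature Extraction 10.10.1.1. The deposited intensity of each spot had its background subtracted by that software, as the headers record. A value table that the authors deposited holds log2 values, and the steps behind it are not given in the sources used. Setting it against the arrays over 41839 probes showed log2 intensity minus the 75th percentile, centred on each probe's median. Its column medians were 0, apart from -0.0021 in 1 column.

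Outlier spots (154 to 184 per array) were left out, log2 was taken of the processed intensities, each array's 75th percentile was taken off, and replicate spots were averaged per probe. Of 55681 probes, 27235 had 1 gene symbol through their RefSeq accession, 0 had several and 28446 had none. The filter on dim probes asked for a signal well above background on 3 of 3 arrays in 1 or more groups. It kept 31244 probes, 17035 of them with a symbol, and the brightest probe per symbol gave 13122 genes. Of 104 list genes, 4 had no probe under their symbol (H2-Ea, Ly6g, Ly6c2 and Cd68). The test was that of limma 3.58.1, run under R 4.3.3 (lmFit and eBayes over all 9 arrays, 6 residual and 2.81 prior degrees of freedom), with Benjamini-Hochberg adjustment over all genes and a threshold of 0.05. Tests were checked on simulated data.

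Named genes were the 8 members, all measured genes of the other class II list, the 2 of smallest p per pathway list and comparison, and the 6 most like the mean class II profile. Some genes that this rule names are left out of the text and not reported here. Members and lists were chosen with earlier results of these data known. Alternatives were other normalizations, filters and probe rules, array weights, slide or replicate number as a block, single arrays left out and the deposited table by its column names. The files used here hold no mean pixel signal, so normexp ran on the median pixel signal in its place. Deviations of same-numbered arrays correlated at 0.116, 0.222 and 0.323 between wild-type DNMT3A and empty vector, at 0.0713, 0.137 and 0.239 between R882H and wild-type DNMT3A and at 0.0884, 0.198 and 0.278 between R882H and empty vector. All pairs passed 0.1 only in the first, so numbers were taken to pair those samples, from the data and not from the labels. The main fit did not use this pairing, so values between wild-type DNMT3A and empty vector are unpaired unless the block is named.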

Additional observations from a re-analysis of the deposited data

Results flagged for a closer look

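The Ciita levels of the R882H and wild-type DNMT3A arrays fell on opposite sides of the empty vector arrays, and neither difference passed the test. All 3 R882H arrays lay above every empty vector array, by a mean log2 difference of 0.13 ± 0.13 (SE), and all 3 wild-type DNMT3A arrays lay below every empty vector array, by -0.19 ± 0.13. Each side changed sign under 1 alternative, R882H minus empty vector to -0.034 with the array median and wild-type DNMT3A minus empty vector to 0.013 by the column names of the deposited table. The direct difference between R882H and wild-type DNMT3A was 0.32 ± 0.13 (SE, limma adjusted p = 0.610) and missed the threshold. It was positive in all 20 alternative settings, from 0.04 by the column names of the deposited table to 0.39 with quantile normalization. Both differences share the empty vector arrays, and the nearest R882H and empty vector arrays had levels of 2.44 and 2.43.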

How the results depend on the processing

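No class II gene passed the adjusted threshold in any comparison under any alternative tried, so the count among the 8 was 0 throughout. The median difference of the 8 genes between R882H and empty vector moved to -0.17 without number 3 in any group, an alternative chosen after seeing the data, and the cause was not tested. With single arrays left out this median ranged from -0.00996 to 0.24, against wild-type DNMT3A from 0.33 to 0.45, and between wild-type DNMT3A and empty vector from -0.30 to 0.014. Replicate number as a block left the medians at 0.15, 0.37 and -0.22 and changed no call. Centring arrays on their median shifted the median of all genes by -0.18 between R882H and empty vector and by -0.11 between R882H and wild-type DNMT3A, and Ciita was then -0.034 between R882H and empty vector, above that shift.

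Other values changed sign, and the cause was not tested. H2-Oa between R882H and wild-type DNMT3A was -0.0072 with quantile normalization, -0.073 with the array median, -0.22 with slide as a block and within slide 2, -0.016 by the deposited table and -0.061 without number 3. H2-Eb1 with slide as a block was -0.088 between R882H and empty vector. Between wild-type DNMT3A and empty vector it was -0.32 with slide as a block and within slide 1, -0.030 with array weights and -0.24 without number 3. In that comparison H2-DMa was 0.12 with slide as a block and within slide 1, and Ciita was 0.013 by the deposited table. H2-DMb1 between R882H and wild-type DNMT3A was 0.080 by the deposited table. Between R882H and empty vector, Cd74 was -0.19 and H2-Aa -0.14 without number 3.

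Leaving out single arrays, values that crossed 0 ranged as follows. Between R882H and empty vector, H2-Oa ranged from -0.23 to 0.16 and Cd74 from -0.10 to 0.33. Between R882H and wild-type DNMT3A, H2-Oa ranged from -0.14 to 0.25 and H2-DMb1 from -0.26 to 0.035. Between wild-type DNMT3A and empty vector, H2-Aa ranged from -0.63 to 0.17, H2-Eb1 from -0.11 to 0.34, H2-DMa from -0.22 to 0.15 and H2-Oa from -0.24 to 0.12.

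With 3 arrays per group and 6 residual degrees of freedom the precision is limited, and the median SE of a log2 difference between R882H and empty vector was 0.23.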
